A study of Mus musculus with 64 samples.

Results

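A set of 10 antigen presentation genes was followed through brain, liver, spleen and thymus of mice that lack the nucleosome-binding protein HMGN2, or both HMGN1 and HMGN2, and of their wild types. The genes were taken by name, and all of their probes in the raw signal table were used. These were 17 probes of 10 genes, of 16590 genes in all. Of the probes, 9 belonged to the MHC class II side, which here comprises the chains H2-Aa, H2-Ab1 and H2-Eb1, the invariant chain Cd74 and the transactivator Ciita. The other 8 probes belonged to the class I side, comprising H2-K1, H2-D1, B2m, Tap1 and Tap2. H2-Ab1 had 4 probes, B2m had 3, and Cd74 and H2-K1 had 2 each, while the other genes had 1. B2m probe 2 was not detected on any array and entered no test. B2m lies on chromosome 2, Ciita on 16 and Cd74 on 18, and the other 7 genes lie on chromosome 17.

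The study holds 64 arrays of total RNA from 16 male mice aged 21 weeks, each of which gave all 4 organs. Hmgn2-/- mice, homozygous for the knockout and labelled C57BL/6, were set against wild-type C57BL/6 mice. Hmgn1-/-n2-/- mice, homozygous for both knockouts and labelled C57BL/6J, were set against wild-type C57BL/6J mice. Each of these 4 groups had 4 mice, and replicates are therefore separate animals. The strain label and the cohort of mice run together, so the wild types' strain and cohort cannot be told apart. The labels and design text do not say how the alleles were made.

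MHC class II molecules are dimers that display peptides from ingested material on B cells, dendritic cells, macrophages and thymic epithelium. The invariant chain Cd74 escorts them through the cell, and Ciita is the coactivator that switches their promoters on. MHC class I heavy chains such as H2-K1 and H2-D1 pair with beta-2-microglobulin (B2m) on most nucleated cells and display peptides that the transporter Tap1/Tap2 carries into the endoplasmic reticulum. In the thymus both kinds of complex select developing T cells, and interferon gamma raises both pathways in many cell types. HMGN1 and HMGN2 bind nucleosomes without preference for a DNA sequence and are found in most cells.

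Class II promoters are known for a shared series of boxes, among them a cAMP-response-element-like X2 box and an inverted CCAAT, or Y, box. Class I promoters share related boxes and an upstream kappa-B enhancer. The 250 bases before the start site are shown for 2 class II chains and 2 class I heavy chains, because the class II chains moved together across organs while the class I heavy chains did not follow them fully. They are RefSeq windows on GRCm38.p6, and capitals mark matches on either strand to CTGATTGG (the inverted CCAAT box), TGACG (the core of the X2 box) and a kappa-B motif (GGG, any 2 bases, then TTCCC). The H2-Aa window lies at chr17:34287824-34288073 on the minus strand, and the H2-Eb1 window at chr17:34305617-34305866 on the plus strand. The H2-K1 window, the first of 2 RefSeq entries, lies at chr17:34000348-34000597 on the minus strand. The H2-D1 window lies at chr17:35262844-35263093 on the plus strand.
H2-Aa: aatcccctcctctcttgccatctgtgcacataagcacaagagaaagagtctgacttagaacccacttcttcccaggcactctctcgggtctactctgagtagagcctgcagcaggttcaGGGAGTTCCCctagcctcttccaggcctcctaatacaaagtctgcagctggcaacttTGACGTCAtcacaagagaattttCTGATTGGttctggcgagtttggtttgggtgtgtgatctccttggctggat
H2-Eb1: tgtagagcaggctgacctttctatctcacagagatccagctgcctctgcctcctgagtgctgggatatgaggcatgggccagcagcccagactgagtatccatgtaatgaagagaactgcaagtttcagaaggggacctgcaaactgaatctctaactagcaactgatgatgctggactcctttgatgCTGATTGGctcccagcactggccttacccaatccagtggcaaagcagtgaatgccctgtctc
H2-K1: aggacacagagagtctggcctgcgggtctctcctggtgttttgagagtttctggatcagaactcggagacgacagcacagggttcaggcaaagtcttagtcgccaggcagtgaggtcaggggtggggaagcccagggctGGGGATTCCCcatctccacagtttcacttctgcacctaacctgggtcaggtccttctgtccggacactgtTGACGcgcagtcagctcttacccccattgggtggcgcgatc
H2-D1: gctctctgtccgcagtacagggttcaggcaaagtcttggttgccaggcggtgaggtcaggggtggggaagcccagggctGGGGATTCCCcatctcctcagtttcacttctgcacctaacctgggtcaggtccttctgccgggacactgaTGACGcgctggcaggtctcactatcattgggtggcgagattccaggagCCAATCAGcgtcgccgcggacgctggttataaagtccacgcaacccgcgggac
In H2-Aa the inverted CCAAT match begins at base -51, counted back from the start, and is preceded by TGACGTCA, where a forward and a reverse TGACG overlap. H2-Aa also holds a kappa-B match, GGGAGTTCCC, at base -131. H2-Eb1 holds only the inverted CCAAT match, at base -62. H2-K1 and H2-D1 share a TGACG and the same kappa-B letters, GGGGATTCCC, which begin at base -171 in H2-D1. The CCAAT box lies on the opposite strand in H2-D1, at base -53. In this H2-K1 entry it begins at base 9 after the start, outside the stretch shown. Of 32851 mouse promoter windows of the same kind, 250 bases before to 50 after a start, 4.1% held the CCAAT motif, 20.8% held TGACG and 1.75% held the kappa-B motif. A match is a run of letters and no measured binding site. Windows were at hand for 6 of the 10 genes.

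Intensities are given as log2 values after background correction and quantile normalization. Values of 1 organ come from that organ's 16 arrays normalized together, and comparisons between organs from all 64 arrays normalized together. Arrays had between 9550 and 13411 detected probes, and the raw 95th percentile of intensity lay between 678 and 1547. Among defining genes of the labelled organs, Syt1 of neurons was at 10.8 to 11.5 in brain, Apoa1 of hepatocytes at 13.7 to 14.0 in liver, Cd79b of B cells at 12.1 to 12.8 in spleen and Rag1 of developing lymphocytes at 11.1 to 11.9 in thymus. Others did not follow the labels: the neuronal gene Snap25 was not detected on any array, Mbp of myelin was at 7.72 to 8.49 in brain but at 9.08 to 9.78 in thymus, and Apoa1 was detected on all 16 thymus arrays, at up to 10.9. Hmgn2 lay between 4.26 and 7.19 on all mutant arrays but 1 and between 8.65 and 12.9 on all wild-type arrays but 1. The exceptions were the spleen library labelled Hmgn1-/-n2-/- replicate 1, at 12.13, and the spleen library labelled C57BL/6J wild type replicate 4, at 6.33. Both go against their labels. Member call counts that rest on them are also given without them, as are changes and overlaps in the spleen comparisons. Wild-type spleen levels, and folds and median changes between organs, are given only with the library labelled C57BL/6J wild type replicate 4 included. The single Hmgn1 probe was at 10.33 to 10.49 in Hmgn1-/-n2-/- brains and 10.60 to 10.70 in C57BL/6J wild-type brains, and at 11.66 to 11.82 and 12.08 to 12.23 in the thymuses. In liver and spleen the groups overlapped, and the labels do not say whether that probe lies in the deleted part.

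To see where the genes are active, the 8 wild-type mice were compared between organs. All 8 class II probes other than Ciita followed 1 order, from spleen over thymus and liver to brain. H2-Aa, the alpha chain of I-A, had log2 intensities of 12.57 ± 0.20 in spleen, 11.15 ± 0.21 in thymus, 7.29 ± 0.23 in liver and 4.80 ± 0.27 in brain (SD, n = 8 each). Its 8 spleens lay between 12.28 and 12.79 with a median of 12.63, against thymuses between 10.80 and 11.41 with a median of 11.21, so the organs did not overlap. In brain H2-Aa was detected on only 4 of 8 wild-type arrays. In bulk tissue, fewer cells of a type and less RNA per cell cannot be told apart.

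The change of H2-Aa between spleen and thymus was 1.43 on the log2 scale, or 2.69-fold higher in spleen (limma with the mouse as a block, adjusted p = 5.03e-13). It was 38.8-fold higher in spleen than in liver, 220-fold higher in spleen than in brain and 5.65-fold higher in liver than in brain, folds that rest on a brain mean in which 4 of 8 arrays were not above background. H2-Eb1, the beta chain of I-E, had 13.03 ± 0.13 in spleen, 11.65 ± 0.16 in thymus, 7.57 ± 0.36 in liver and 5.31 ± 0.32 in brain (SD, n = 8 each), and was 2.61-fold higher in spleen than in thymus. The 4 probes of H2-Ab1, the beta chain of I-A, were 1.62-fold to 2.15-fold higher in spleen than in thymus. Cd74 probe 1 had 13.75 ± 0.16 in spleen, 12.53 ± 0.23 in thymus, 8.48 ± 0.30 in liver and 5.62 ± 0.38 in brain (SD, n = 8 each). It was 2.33-fold higher in spleen than in thymus and 280-fold higher in spleen than in brain. Over the 8 class II probes other than Ciita, spleen exceeded liver by 28.7-fold to 44.1-fold and thymus exceeded liver by 13.4-fold to 25.1-fold.

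Ciita, the class II transactivator, had a wider gap between the lymphoid organs than the class II chains. It had 10.15 ± 0.25 in spleen and 7.66 ± 0.21 in thymus (SD, n = 8 each). Its spleens lay between 9.70 and 10.47 with a median of 10.20, and its thymuses between 7.27 and 7.90 with a median of 7.62, without overlap. Ciita was 5.62-fold higher in spleen than in thymus (log2 change 2.49, limma, adjusted p = 4.52e-28). It was not detected on any liver or brain array. Folds were set against the lowest signal of detected probes there, or its own signal where that was higher. On that scale Ciita was at least 26.3-fold higher in spleen than in liver and at least 39.4-fold higher in spleen than in brain. It was at least 4.69-fold higher in thymus than in liver and at least 7.00-fold higher in thymus than in brain. The difference between its change and those of the class II chains was not tested.

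**Figure D1:**
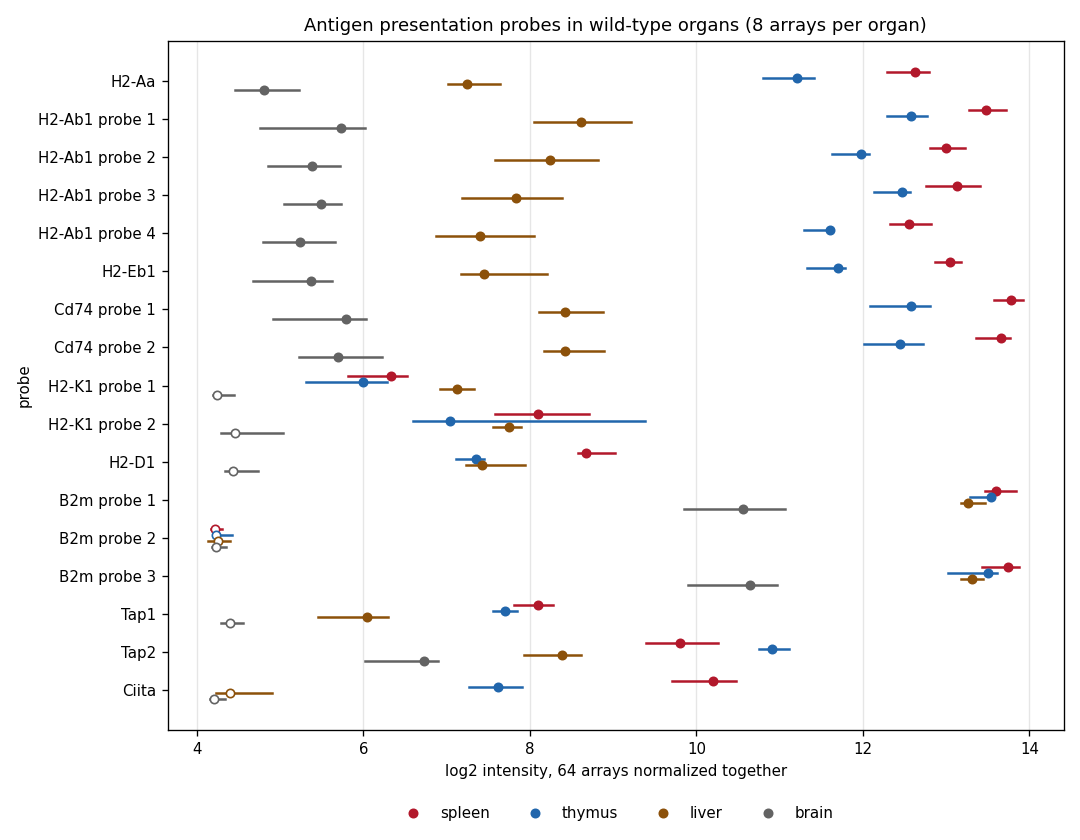
Log2 intensity of each antigen presentation probe (rows) in spleen, thymus, liver and brain of the 8 wild-type mice, normalized over all 64 arrays. Points are medians and lines run from the lowest to the highest array, with open circles where a probe was detected on fewer than 4 of the 8 arrays. Class II probes other than Ciita run in the order spleen, thymus, liver, brain, and Tap2 is highest in thymus. B2m probes 1 and 3 are at 13.29 or above in spleen, thymus and liver on average, while B2m probe 2 was not detected.

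The class I probes did not share 1 order. H2-D1 was 2.71-fold higher in spleen than in thymus, with 8.77 ± 0.20 in spleen, 7.33 ± 0.12 in thymus and 7.52 ± 0.28 in liver (SD, n = 8 each). H2-K1 probe 1 had 6.21 ± 0.28 in spleen and 5.91 ± 0.28 in thymus, against 7.13 ± 0.12 in liver, where it was highest (SD, n = 8 each). It was 1.90-fold lower in spleen than in liver (log2 change -0.92, limma, adjusted p = 2.71e-11) and 2.34-fold lower in thymus than in liver. H2-K1 probe 2 had 8.10 ± 0.34 in spleen, 7.51 ± 1.06 in thymus and 7.75 ± 0.11 in liver (SD, n = 8 each). Its change between spleen and liver was 0.36 (limma, adjusted p = 0.0588) and did not pass, but it was 0.91 under median scaling (adjusted p = 9.66e-06) and passed without C57BL/6J replicate 1 (0.39) or 2 (0.39). The changes of the 2 probes between spleen and liver thus have opposite signs. H2-K1 and H2-D1 are related class I genes, and without probe sequences it is uncertain whether each probe reads only its own gene. In brain neither gene was reliably detected, and H2-D1 was at least 15.1-fold higher in spleen and at least 6.39-fold higher in liver than in brain.

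Tap2, a subunit of the peptide transporter, was the one probe higher in thymus than in spleen. It had 9.81 ± 0.27 in spleen and 10.89 ± 0.12 in thymus (SD, n = 8 each), a change of -1.08, or 2.12-fold lower in spleen (limma, adjusted p = 2.04e-12). Tap2 averaged 8.36 ± 0.23 in liver and 6.63 ± 0.30 in brain. Its partner Tap1 had 8.06 ± 0.20 in spleen, 7.71 ± 0.08 in thymus and 5.92 ± 0.30 in liver (SD, n = 8 each), and was not detected in brain. Tap1 was 4.39-fold higher in spleen than in liver, while its change between spleen and thymus was 0.35 (limma, adjusted p = 0.0186).

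B2m, the light chain shared by class I molecules, had similar means in the 3 organs outside brain under quantile scaling. Probe 1 had 13.62 ± 0.14 in spleen, 13.49 ± 0.10 in thymus, 13.29 ± 0.10 in liver and 10.48 ± 0.48 in brain (SD, n = 8 each). It was 8.82-fold higher in spleen than in brain. Its spleen minus thymus change of 0.13 did not pass (limma, adjusted p = 0.186), but it was 0.41 under median scaling (adjusted p = 7.75e-05). Spleen exceeded liver by 0.32 for B2m probe 1 and by 0.38 for probe 3 on the log2 scale, but with medians aligned in place of quantiles these changes were -0.12 and -0.08. Under that scaling the spleen minus liver median of all probes moved to 0.22.

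Between spleen and thymus, 14 of the 16 probes tested were higher and 1 was lower in spleen, where 59.8% of all probes were called in either direction. The counts were 14 higher and 1 lower for spleen against liver (74.8% of all probes called), 12 higher and 2 lower for thymus against liver (74.1%), and 16 higher for spleen against brain (79.7%), thymus against brain (78.5%) and liver against brain (76.9%). The last count includes Ciita, which was not detected in either organ. With most probes called, these counts say little by themselves. The median change over the members was 0.96 for spleen against thymus, where the median over all probes was -0.03. It was 4.86 for spleen against liver and 6.63 for spleen against brain, where all probes had medians of 0.07 and 0.06. The small changes were the unstable ones. Without C57BL/6 replicate 1, or C57BL/6J replicate 1 or 2, the Tap1 change between spleen and thymus lost its call (0.31, 0.32 and 0.33), and so did that of H2-K1 probe 1 without C57BL/6 replicate 1 or 4 or C57BL/6J replicate 2 (0.19, 0.26 and 0.26). H2-K1 probe 2 lost its spleen and thymus call without C57BL/6J replicate 3 (0.36), and its thymus minus liver change of -0.23 passed without C57BL/6J replicate 1 (-0.43) or 4 (-0.38). H2-D1 differed between thymus and liver by -0.19 (limma, adjusted p = 0.0496), which lost its call without any 1 of 6 of the 8 mice and turned to 0.30 under median scaling. B2m probe 1 differed between thymus and liver by 0.20 (limma, adjusted p = 0.0301). It lost its call without C57BL/6 replicate 2 or 3 or C57BL/6J replicate 1, 2 or 3 (0.18 to 0.19). Without the spleen library labelled C57BL/6J wild type replicate 4, the counts for spleen stood at 15 of 16 against thymus, 15 against liver and 16 against brain.

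Over the 16 means of organ and genotype group, the probes whose pattern was most like H2-Aa were read out as Pearson's r, a description over groups that share normalization and organs. The genes outside the members closest to H2-Aa were Lyz1 (r = 0.998), a lysozyme gene, Ptpn6 (0.996), Lgals3 (0.995), Gimap8 (0.995) and Myh9 (0.995). Among the members, H2-Eb1 had 0.998, Tap1 0.989, Ciita 0.945, Tap2 0.901, B2m probe 1 0.826 and H2-K1 probe 1 0.481. The genes closest to H2-K1 probe 2 were Syngr2 (0.983), Irgm1 (0.981), Helz2 (0.979), the class I gene H2-Q7 (0.977) and Slc30a7 (0.973). Irgm1 is an interferon-induced GTPase. H2-D1 had 0.956 with this probe and Ciita 0.596. Without the 2 spleen libraries that go against their labels, none of these values moved by more than 0.0037.

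To learn whether the loss of the HMGN proteins moves antigen presentation, each mutant was compared with its wild type within each organ. No member probe passed in any of the 8 comparisons (limma, adjusted p under 0.05). In Hmgn2-/- mice 0 of 11 tested probes passed in brain (0.0161% of all probes called), 0 of 15 in liver (0.0194%), 0 of 16 in spleen (0%) and 0 of 16 in thymus (13.9%). In Hmgn1-/-n2-/- mice 0 of 11 passed in brain (0.169%), 0 of 15 in liver (0.252%), 0 of 16 in spleen (0.0157%) and 0 of 16 in thymus (0.242%). At an unadjusted limma p under 0.05 the members numbered 0, 4, 0 and 2 in Hmgn2-/- brain, liver, spleen and thymus. Over all probes there were 343 of 12404, 389 of 10306, 378 of 12745 and 3648 of 12392 such probes. The members numbered 4, 0, 1 and 3 in the same organs of Hmgn1-/-n2-/- mice. Over all probes there were 889, 856, 1348 and 1035, of the same totals. The smallest adjusted p was 0.098, in Hmgn2-/- thymus. The difference between the 2 mutants' changes was tested as well, with 0 members called in each organ (brain 0.00806%, liver 0.0097%, spleen 0% and thymus 1% of all probes called). Averaged over the 4 organs, the 11 probes detected in every organ changed by -0.13 to 0.07 in Hmgn2-/- mice (0.0809% of all probes called). In Hmgn1-/-n2-/- mice they changed by -0.31 to 0.12 (0.462%), or by -0.33 to 0.10 without the 2 spleen libraries that go against their labels. With all libraries, every class II probe among them was lower in Hmgn1-/-n2-/- mice, with changes of -0.31 to -0.16. Their 95% intervals lay below 0, except that of H2-Ab1 probe 2 (-0.33 to 0.02). None passed, with a smallest adjusted p of 0.447 (limma). Over all probes, 562 of 8649 had an unadjusted limma p under 0.05 in that test. B2m probes 1 and 3 and Tap2 changed by -0.08 to 0.12, with intervals that held 0. A p that misses the threshold does not show that the groups were alike, and the intervals below give the sizes left under quantile scaling.

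**Figure D2:**
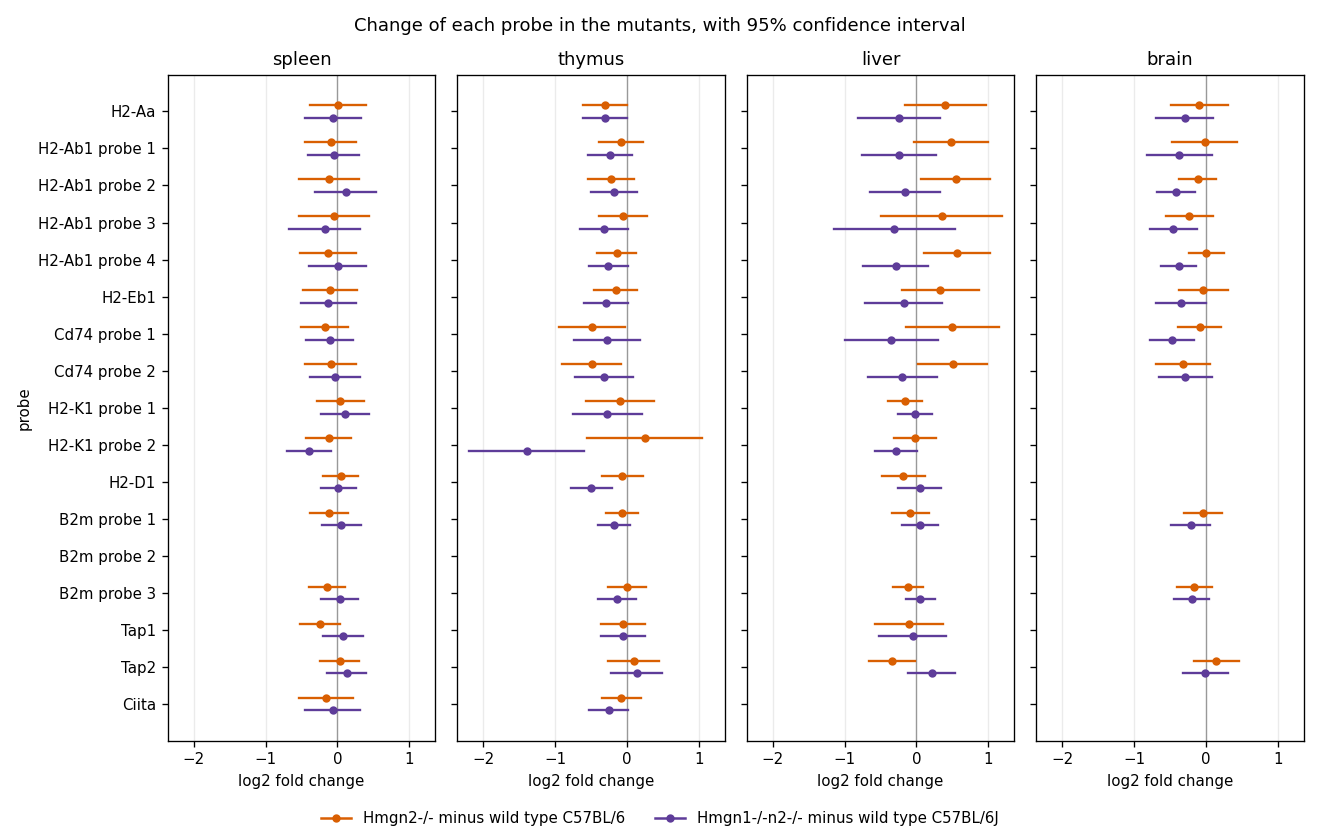
Log2 change of each tested probe in Hmgn2-/- against C57BL/6 wild-type mice and in Hmgn1-/-n2-/- against C57BL/6J wild-type mice, one panel per organ, n = 4 mice per group. Lines are 95% confidence intervals from limma. No change passed an adjusted p of 0.05. Class II probes lie above 0 in Hmgn2-/- liver, and below 0 in Hmgn2-/- thymus and in Hmgn1-/-n2-/- brain, liver and thymus.

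In the thymus of Hmgn2-/- mice all 9 class II probes had lower means than in the C57BL/6 wild type, with changes of -0.49 to -0.05 and a median of -0.16, where all probes had a median of 0.01. Liver genes stood out on an array of each group: their mean over 4 genes was 6.43, 6.38, 8.25 and 6.78 in Hmgn2-/- thymuses and 10.45, 6.34, 6.39 and 6.85 in wild-type thymuses. The raised arrays, Hmgn2-/- replicate 3 and wild-type replicate 1, were also lowest for class II in their groups, on 7 and 8 of 8 probes. Without both, 0 members passed, 8 of 9 class II changes were negative and their median was -0.17, while the calls over all probes numbered 563, against 1720 with all arrays. The largest changes were those of the 2 Cd74 probes. Cd74 probe 1 had 11.51, 11.74, 11.37 and 12.63 in Hmgn2-/- thymuses, against 12.02, 12.49, 12.44 and 12.21 in wild-type thymuses. Of the Hmgn2-/- values, 3 lay below all wild-type values and replicate 4 lay above them, so the groups overlapped. The change was -0.48, with a 95% interval of -0.94 to -0.02 (limma, adjusted p = 0.151). Cd74 probe 2 repeated the pattern, with 11.52, 11.52, 11.30 and 12.36 in Hmgn2-/- thymuses, against 11.95, 12.31, 12.30 and 12.12 in wild-type thymuses. Its change was -0.49, with an interval of -0.90 to -0.08 (limma, adjusted p = 0.098). Without the arrays with raised liver genes, the changes of probes 1 and 2 were -0.42 (adjusted p = 0.312) and -0.44 (adjusted p = 0.245). Without Hmgn2-/- replicate 4 both fell, by 0.75 (adjusted p = 0.00384) and 0.72 (adjusted p = 0.00349). With single mice left out, the calls over all probes ran from 872 to 2828, and the number for that fit is not given here. None of the 16 probes had groups that did not overlap, where 14.4% of all probes did. In the other Hmgn2-/- organs 0 members had groups that did not overlap either, where 1.11% of all probes in brain, 1.96% in liver and 2.36% in spleen did.

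The count of calls in this comparison depended on the scaling, with 0 to 2 members called when single mice were left out and 10 under another scaling. Hmgn2-/- thymus arrays were dimmer, with raw 95th percentiles of 807 to 933, against 1072 to 1257 on wild-type arrays. With medians aligned in place of quantiles, 10 members fell in Hmgn2-/- thymus: H2-Aa by 0.66, the 4 H2-Ab1 probes by 0.49 to 0.60, H2-Eb1 by 0.54, both Cd74 probes by 0.90, B2m probe 1 by 0.60 and B2m probe 3 by 0.54. Under that scaling 24.1% of all probes were called, 95.8% of them lower, where quantile scaling gave 54.7% lower. The median over all probes was -0.16, against 0.01 with quantiles, and that over the 1207 brightest probes, with a mean log2 intensity of at least 10, was -0.36, against 0.01. The falls of B2m, Cd74 and the H2-A and H2-E chains are thus on a scale on which bright probes as a whole were lower. What part of them belongs to these genes was not tested.

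**Figure D3:**
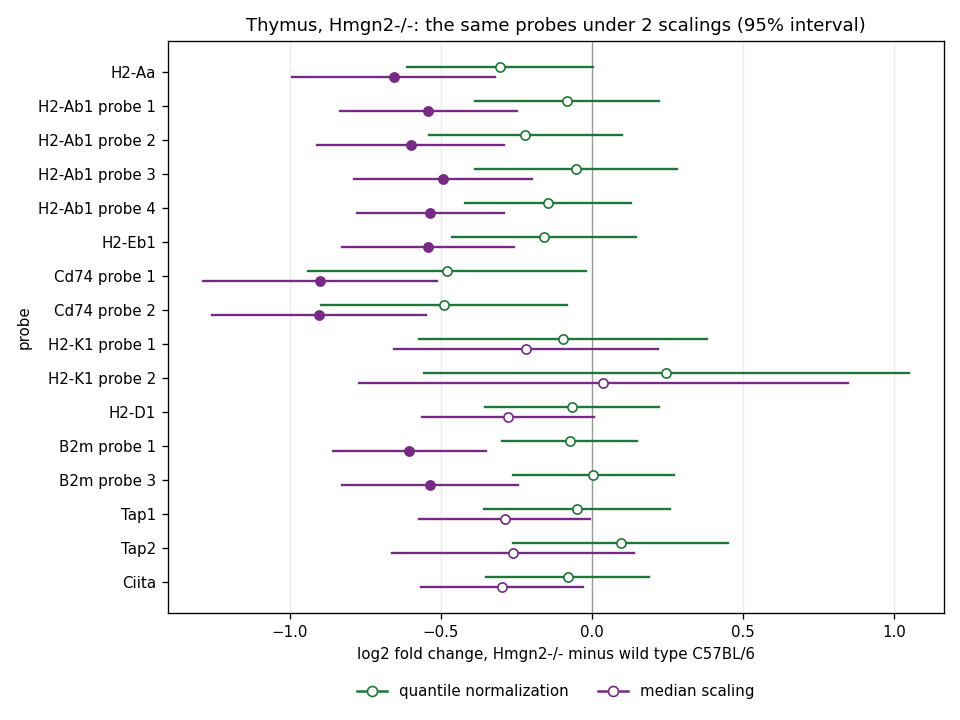
Log2 change of the 16 tested probes in Hmgn2-/- thymus against C57BL/6 wild-type thymus under quantile scaling and under median scaling, n = 4 mice per group. Filled points have an adjusted p under 0.05 in limma. No probe is filled under quantile scaling and 10 are under median scaling.

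Markers of the cells that carry class II were measured in the same thymuses. The mean over 9 measured B cell genes was 5.76 to 6.43 in Hmgn2-/- thymuses and 6.02 to 6.36 in wild-type thymuses, and Ms4a1 of mature B cells was not detected on any thymus array. Of these B cell genes 1 fell, Cd79a of the B cell receptor, by 0.68 (limma, adjusted p = 0.0434), where 7.91% of all genes fell. The mean over 7 thymic epithelial genes was 9.01 to 9.40 in Hmgn2-/- thymuses and 9.15 to 9.47 in wild-type thymuses, and none of the 7 passed. The mean over 8 dendritic cell genes was 6.26 to 6.53 in Hmgn2-/- thymuses and 6.14 to 6.32 in wild-type thymuses. Of these 1 rose, Siglech of plasmacytoid dendritic cells, by 0.56 (limma, adjusted p = 0.0069), where 6.74% of all genes rose. Cd79a and Siglech were named after their values were seen. The mean over 7 macrophage and monocyte genes was 7.84 to 8.44 in Hmgn2-/- thymuses and 8.02 to 8.32 in wild-type thymuses, and none of the 7 passed. The part of these cells in the class II values was not tested.

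In the thymus of Hmgn1-/-n2-/- mice all 9 class II changes were again negative, between -0.32 and -0.18 with a median of -0.28, and none passed. The probes with the widest gap were of class I. H2-D1, a class I heavy chain, had 6.92, 7.01, 7.18 and 7.11 in Hmgn1-/-n2-/- thymuses, against 7.53, 7.45, 7.65 and 7.58 in C57BL/6J wild-type thymuses. Every mutant value lay below every wild-type value, and the change was -0.50 with a 95% interval of -0.78 to -0.21 (limma, adjusted p = 0.197). H2-D1 fell by 0.49 when arrays were weighted by quality (adjusted p = 0.0225) and also passed when only these 8 arrays were fitted (adjusted p = 0.0488). The calls over all probes in these fits are not given here. H2-K1 probe 2 had 6.95, 6.77, 6.90 and 7.06 in Hmgn1-/-n2-/- thymuses, against 9.53, 7.21, 7.31 and 9.19 in wild-type thymuses. The wild types split into a high pair and a low pair, both above the mutants. The change was -1.39 with an interval of -2.19 to -0.59 (limma, adjusted p = 0.196), and -1.76 without wild-type replicate 2 (adjusted p = 0.0445). With single mice left out, 21 to 39 of all probes were called in this comparison.

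No other thymus came near the higher pair: H2-K1 probe 2 was at 7.12 to 7.48 in Hmgn2-/- and 6.79 to 7.24 in C57BL/6 wild-type thymuses. H2-K1 probe 1 did not show the split. It had 6.05, 5.81, 6.22 and 5.92 in Hmgn1-/-n2-/- thymuses, against 6.25, 6.20, 6.15 and 6.48 in C57BL/6J wild-type thymuses. The probes of this gene thus disagree, and the specificity of the second is uncertain as said above. In this organ 2 of the 16 probes had groups that did not overlap, where 8.5% of all probes did. The mean over 9 B cell genes was 6.07 to 6.51 in Hmgn1-/-n2-/- and 6.30 to 6.61 in wild-type thymuses. That over 8 dendritic cell genes was 6.13 to 6.26 in Hmgn1-/-n2-/- and 6.35 to 6.58 in wild-type thymuses, without overlap, and none of the 8 passed. Its part in the class II values was not tested.

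**Figure D4:**
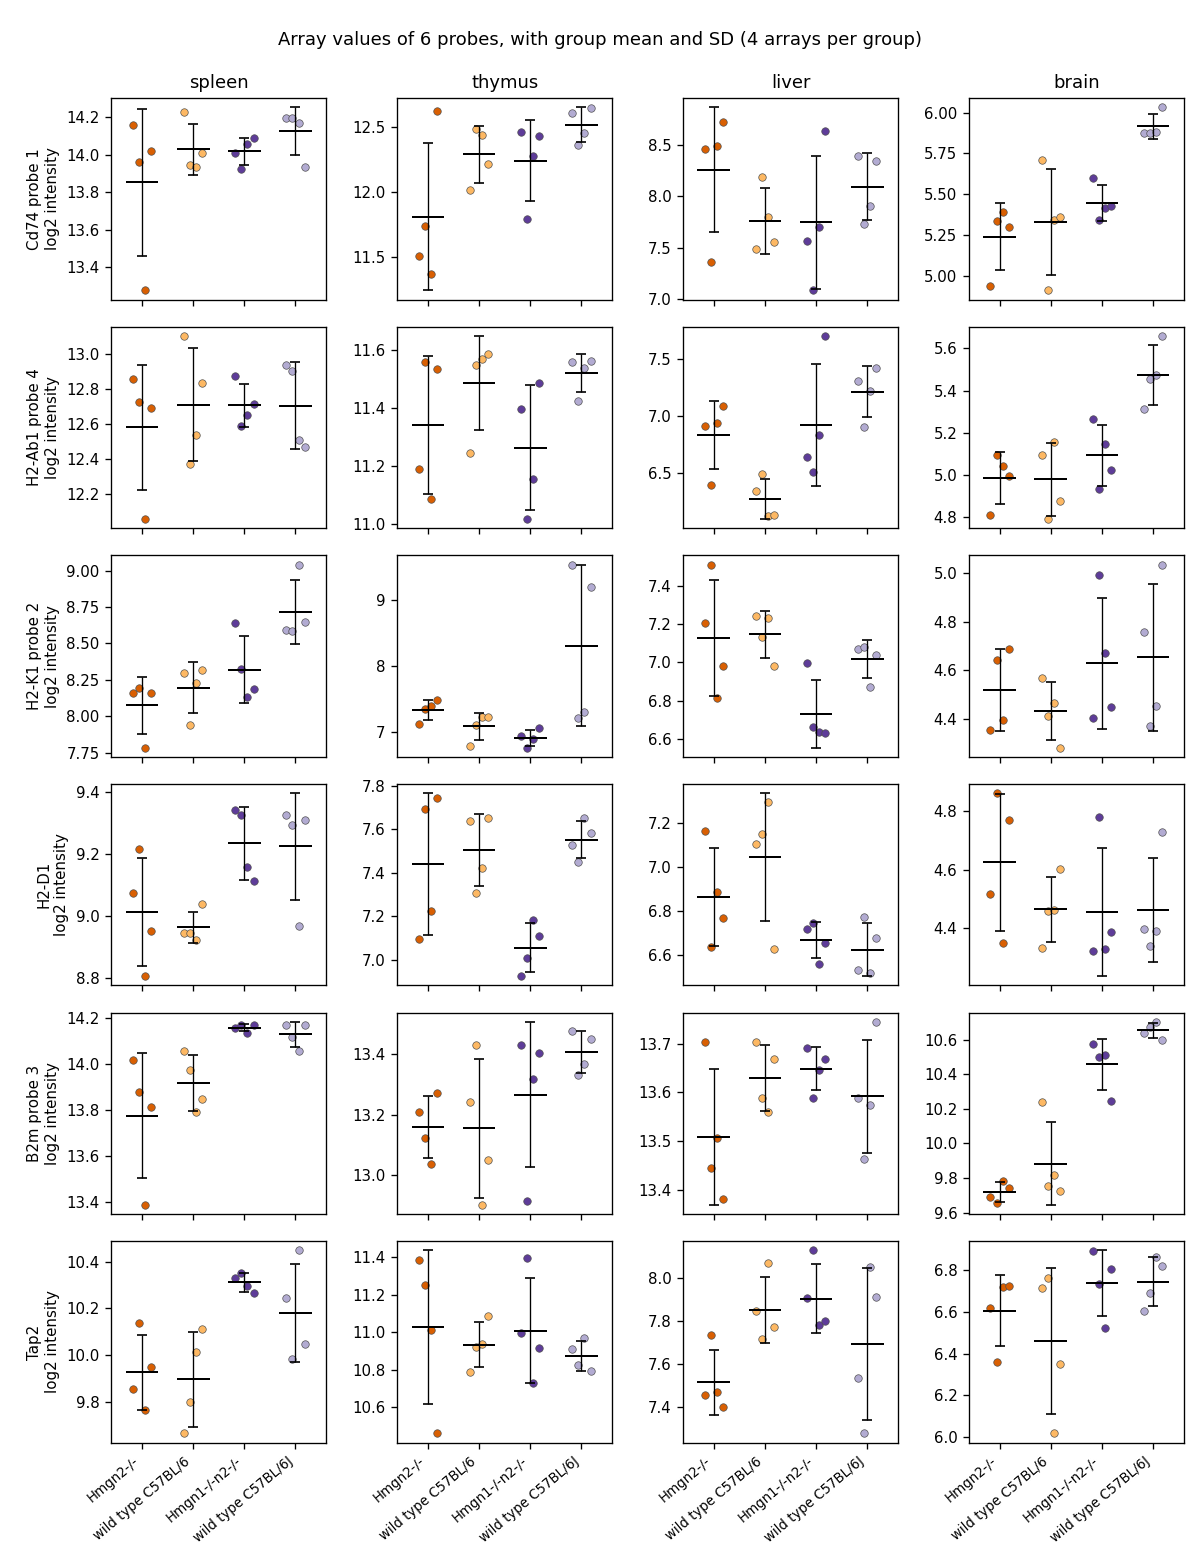
Log2 intensity of 6 probes on every array, by organ and group, with each mutant left of its wild type. Points are arrays (1 mouse each), bars are means and whiskers are SD, n = 4 per group. In thymus, Cd74 probe 1 shows 1 high Hmgn2-/- array at 12.63, and H2-K1 probe 2 shows 2 high C57BL/6J wild-type arrays at 9.53 and 9.19.

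In the brain of Hmgn1-/-n2-/- mice all 8 tested class II probes had lower means than in the C57BL/6J wild type, with changes of -0.47 to -0.29 and a median of -0.38, and none passed. Cd74 probe 1 had 5.60, 5.34, 5.41 and 5.43 in Hmgn1-/-n2-/- brains, against 5.88, 5.88, 5.88 and 6.03 in wild-type brains. The groups did not overlap, and the change was -0.47 with an interval of -0.77 to -0.17 (limma, adjusted p = 0.382). H2-Ab1 probe 2 had 5.34, 5.19, 5.01 and 5.31 in Hmgn1-/-n2-/- brains, against 5.72, 5.61, 5.45 and 5.73 in wild-type brains, again without overlap (log2 change -0.42, limma, adjusted p = 0.356). In all, 5 of 11 member probes had groups that did not overlap, where 7.55% of all probes did. With arrays weighted by quality, a fit whose calls over all probes are not given here, 4 probes fell. They were Cd74 probe 1, by 0.48 (adjusted p = 0.00528), and H2-Ab1 probes 2, 3 and 4 (adjusted p = 0.0135, 0.0308 and 0.0114). These levels lie near the limit of detection, and a mean over 8 microglial genes was 6.05 to 6.20 in Hmgn1-/-n2-/- and 6.03 to 6.57 in wild-type brains.

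The same brain probes separated the wild types. C57BL/6 wild-type brains were lower than C57BL/6J wild-type brains on all 11 tested probes, with a median change of -0.49, and 4 of them passed, where 1.68% of all probes were called. B2m probe 1 had 10.20, 9.68, 9.83 and 9.77 in C57BL/6 brains, against 10.67, 10.48, 10.79 and 10.63 in C57BL/6J brains. The groups did not overlap, and the change was -0.77 with an interval of -1.04 to -0.50 (limma, adjusted p = 0.00528). B2m probe 3 had 10.24, 9.76, 9.82 and 9.72 in C57BL/6 brains, against 10.64, 10.67, 10.70 and 10.60 in C57BL/6J brains (log2 change -0.77, limma, adjusted p = 0.00217). Both B2m calls held without each mouse in turn.

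The other wild-type brain calls were smaller. Cd74 probe 1 was lower by 0.59 in C57BL/6 brains (limma, adjusted p = 0.0415), with 5.71, 4.91, 5.34 and 5.36 in C57BL/6 brains and 5.88 to 6.03 in C57BL/6J brains. It kept its call only without C57BL/6 replicate 1 and lost it without any of the other 7 mice. H2-Ab1 probe 4 was lower by 0.49 (limma, adjusted p = 0.038), with 5.09, 4.79, 5.16 and 4.88 in C57BL/6 brains and 5.31, 5.46, 5.47 and 5.66 in C57BL/6J brains. It lost its call without C57BL/6 replicate 2 or 4 or C57BL/6J replicate 2, 3 or 4. In all, 7 of 11 members had wild-type groups that did not overlap, where 10% of all probes did. C57BL/6 brain arrays had raw 95th percentiles of 678 to 1186, against 973 to 1218 on C57BL/6J arrays, and the part of array brightness in these calls was not tested. In Hmgn2-/- brains the class II changes had a median of -0.09 and the class I changes one of -0.04.

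No member passed in either mutant liver, and the class II means leaned to different sides. In Hmgn2-/- livers all 8 tested class II probes had higher means than in C57BL/6 wild-type livers, with changes of 0.33 to 0.56 and a median of 0.49, and none passed. H2-Ab1 probe 4 had 6.92, 6.40, 6.94 and 7.09 in Hmgn2-/- livers, against 6.34, 6.49, 6.13 and 6.14 in wild-type livers. Of the mutant values, 3 lay above all wild types and replicate 2 lay among them (log2 change 0.56, interval 0.11 to 1.02, limma, adjusted p = 1.00). In Hmgn1-/-n2-/- livers the same 8 probes had lower means than in C57BL/6J wild-type livers, with changes of -0.35 to -0.16 and a median of -0.24. The difference between the mutants' changes was -0.85 to -0.51 over these probes, with a smallest adjusted p of 0.676, so no probe passed. In Hmgn1-/-n2-/- livers 0 of 15 probes had groups that did not overlap, where 6% of all probes did. The class I probes did not share the pattern: their median change was -0.12 in Hmgn2-/- and 0.05 in Hmgn1-/-n2-/- livers.

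The class II probes of liver moved together from mouse to mouse. Their mean over 8 probes was 7.79, 6.76, 7.62 and 7.99 in Hmgn2-/- livers and 7.05, 7.45, 6.92 and 6.90 in C57BL/6 wild-type livers. Replicate 2 was lowest among the Hmgn2-/- livers on 8 of 8 probes and replicate 2 was highest among the wild types on 8 of 8. It was 7.12, 7.10, 7.20 and 8.11 in Hmgn1-/-n2-/- livers, where replicate 4 was highest on 8 of 8, and 7.81, 7.30, 7.48 and 7.92 in C57BL/6J wild-type livers. The mean over 9 macrophage and monocyte genes was 7.18, 6.50, 7.53 and 7.08 in Hmgn2-/- livers and 6.39, 7.81, 7.68 and 6.58 in C57BL/6 wild-type livers. It was 6.22, 6.11, 6.46 and 7.13 in Hmgn1-/-n2-/- livers, highest in replicate 4 as well, and 6.72, 6.43, 6.40 and 7.55 in C57BL/6J wild-type livers. The part of these cells in the liver values was not tested.

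Between the wild-type livers 1 member passed. All 8 tested class II probes had lower means in C57BL/6 than in C57BL/6J livers, with changes of -0.94 to -0.08. Their median was -0.55, where all probes had a median of -0.02. The 2 mutants' liver changes were thus read against wild types that differed in class II. H2-Ab1 probe 4 was lower by 0.94 in C57BL/6 livers (limma, adjusted p = 0.0408), with 6.34, 6.49, 6.13 and 6.14 there and 7.31, 6.90, 7.22 and 7.42 in C57BL/6J livers, without overlap. In all, 3 of 15 members did not overlap between the wild-type livers, where 10.3% of all probes did. Of all probes 1.18% were called in this comparison, and the call was lost when any 1 of the 8 mice was left out. Between the wild-type spleens 0 members passed (0.0314% of all probes called) and between the wild-type thymuses 0 passed (0.25%). In each of these organs 1 member did not overlap between the wild types, where 6.85% of all probes in spleen and 8.68% in thymus did.

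In spleen, the organ with the highest class II levels, the changes were small. The class II median was -0.10 in Hmgn2-/- spleens and -0.06 in Hmgn1-/-n2-/- spleens, and the class I medians were -0.12 and 0.05. The mean over 8 class II probes was 13.59, 13.41, 12.63 and 13.49 in Hmgn2-/- spleens, against 13.63, 13.19, 13.19 and 13.47 in C57BL/6 wild-type spleens. Hmgn2-/- replicate 3 was lowest in its group on 8 of 8 probes, and wild-type replicates 2 and 3 had the lower means of theirs. It was 13.51, 13.40, 13.36 and 13.43 in Hmgn1-/-n2-/- spleens and 13.57, 13.59, 13.41 and 13.34 in C57BL/6J wild-type spleens, which overlap and each include 1 library that goes against its label. None of the 16 probes had groups that did not overlap in Hmgn1-/-n2-/- spleens, where 7.27% of all probes did. H2-K1 probe 2 had the smallest adjusted p in the Hmgn1-/-n2-/- spleen, with a change of -0.40 (limma, adjusted p = 0.419). Without the 2 spleen libraries that go against their labels, 0 members passed in Hmgn1-/-n2-/- spleens, with changes of -0.53 to 0.08, a class II median of -0.14 and a class I median of 0.01, and 0 passed between the wild types or in the difference between the mutants. In that fit of 3 against 3 arrays 5 of 16 probes did not overlap in Hmgn1-/-n2-/- spleens, where 17.9% of all probes did. Between the wild types 2 of 16 did not overlap, where 10.5% of all probes did.

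Single spleens of both groups of the Hmgn2-/- comparison stood apart in markers of other cells. The mean over 11 measured B cell genes, of 13 listed, was 10.71, 10.58, 10.04 and 10.52 in Hmgn2-/- spleens and 10.995, 10.30, 10.27 and 10.65 in C57BL/6 wild-type spleens. The mean over 5 exocrine pancreas genes, markers of a gland that lies beside the spleen, was 4.90, 6.12, 14.00 and 5.17 in Hmgn2-/- spleens and 4.95, 7.65, 8.05 and 11.65 in C57BL/6 wild-type spleens. Hmgn2-/- replicate 3 thus had the lowest B cell level and the highest pancreas level of its group. The mean over 10 neutrophil genes was 8.31, 8.69, 10.31 and 9.32 in Hmgn2-/- spleens and 7.94, 10.98, 11.03 and 8.30 in C57BL/6 wild-type spleens. That over 6 erythroid genes was 10.60, 11.59, 12.49 and 11.90 in Hmgn2-/- spleens and 10.73, 12.58, 12.40 and 10.58 in wild-type spleens. Both were highest in Hmgn2-/- replicate 3 and in wild-type replicates 2 and 3. The same 2 wild-type mice had neutrophil means of 7.97 and 8.62 in liver, against 5.00 and 5.14 in the other C57BL/6 livers. Without these 3 spleens 0 members passed in a fit of 3 Hmgn2-/- against 2 wild-type arrays, where 0% of all probes were called. The class II median was -0.05 in Hmgn2-/- spleens. Wild-type replicate 4, at 11.65 for pancreas genes, stayed in that fit. Pancreas genes were not low elsewhere: they were 8.54, 8.99, 7.97 and 5.06 in Hmgn1-/-n2-/- spleens and 9.39, 5.71, 4.81 and 13.71 in spleens labelled C57BL/6J wild type. Their part in the class II values was not tested.

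**Figure D5:**
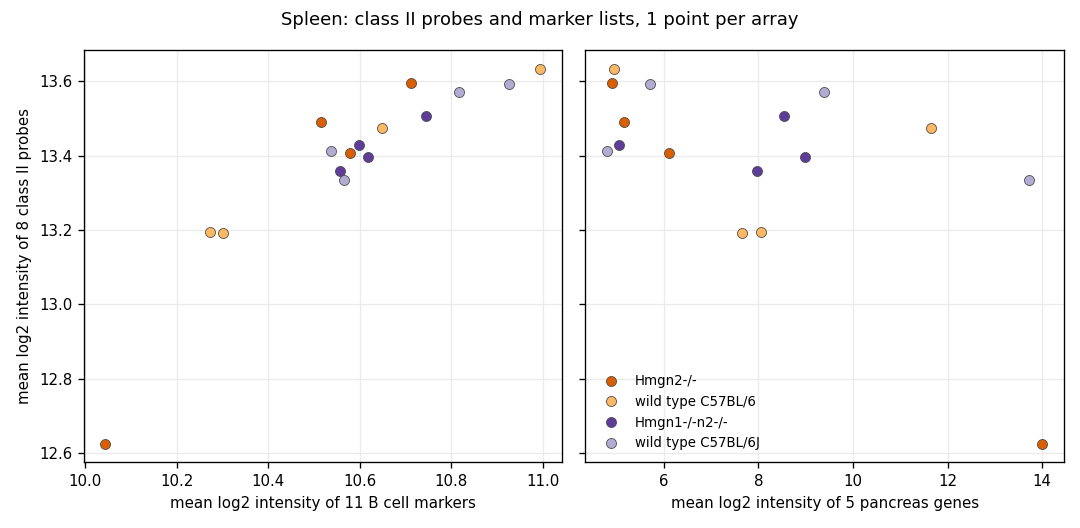
Mean log2 intensity of 8 class II probes on each spleen array against the mean over 11 B cell genes (left) and over 5 exocrine pancreas genes (right). Each point is 1 mouse. Hmgn2-/- replicate 3 sits at 12.63 for class II, with 10.04 for B cell genes and 14.00 for pancreas genes.

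The partners of the members were counted in lists of other antigen presentation genes. In Hmgn2-/- thymus, where 6.74% of 9041 genes rose and 7.91% fell, 1 of 14 class II pathway genes rose and 1 fell. They were Ctsb, a lysosomal protease, with a change of 0.38 (limma, adjusted p = 0.036), and H2-Oa, a chain of the class II peptide-loading modulator H2-O, with -0.46 (adjusted p = 0.0291). Of 7 class II promoter factors 1 fell, Rfxap, a subunit of the X-box binding RFX complex, with -0.46 (adjusted p = 0.026). Of 12 class I pathway genes 0 passed. Of 5 genes of the immunoproteasome and its activator 3 fell: Psme2 (-0.54, adjusted p = 0.0124) and Psme1 (-0.39, adjusted p = 0.0405), which form the proteasome activator PA28, and Psmb9 (-0.27, adjusted p = 0.0472), a catalytic immunoproteasome subunit. The median over these 5 was -0.33, with a range of -0.54 to -0.25. Of 16 genes of the interferon gamma response 3 rose, Ifngr1 (0.41, adjusted p = 0.0151), a chain of the interferon gamma receptor, and the kinases Jak1 (0.61, adjusted p = 0.0311) and Jak2 (0.47, adjusted p = 0.0404). Without the 2 thymus arrays with raised liver genes, 1 of these 9 pathway genes, Psme2, passed (-0.61, limma, adjusted p = 0.0344), where 4.54% of all probes were called. All 9 kept their direction. That says little, because they were chosen by their calls and the 2 fits share most arrays.

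Outside the Hmgn2-/- thymus the mutants showed 1 call in these lists. Igtp, an interferon-induced GTPase, fell in Hmgn1-/-n2-/- livers by 1.11 (limma, adjusted p = 0.00522), 1 of 14 interferon gamma response genes tested there, where 0.144% of all genes fell. Between the wild types, Igtp was lower by 1.08 in C57BL/6 livers (adjusted p = 0.00741), where 0.275% of all genes were lower, and Gbp3, another interferon-induced GTPase, was lower by 0.55 in C57BL/6 brains (adjusted p = 0.0139), where 0.819% of all genes were lower. They were 1 of 14 and 1 of 10 genes tested.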

How the data were processed

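Total RNA of the 4 organs of 16 mice was read on 64 single-colour Illumina bead arrays. The deposited raw table gives a signal intensity on a linear scale and a detection p-value per probe, per the file headers; a second deposited table of normalized intensity served as an alternative. The submitters' processing notes name GenomeStudio 2011.1. The labels and files name no slides, scan dates, probe sequences or genome build. Arrays have no depth in counts, so the number of arrays limits the precision. Of 25697 probes, 23978 had 1 gene symbol in GEO's platform annotation, 1719 had none and 0 had several.

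In R 4.3.3, limma 3.58.1 corrected background and normalized intensities (neqc, offset 16, quantile), within each organ and, for comparisons between organs, over all arrays. A probe was tested in an organ if its detection p was under 0.01 on 4 or more of 16 arrays, and for organ contrasts if it was so detected on at least 4 of 64. Each organ was fitted with its 4 groups (lmFit, eBayes), and p-values were adjusted over all tested probes with Benjamini-Hochberg, called under 0.05. Organ contrasts had the mouse as a random block (correlation 0.0311 over 8649 probes detected in every organ, for the mean changes, and 0.0184 over 15931 probes for the contrasts). "At least" folds set the bright organ's mean against a limit averaged over the dim organ's arrays. On each array the limit was the lowest signal of detected probes, or the probe's own signal where that was higher. Probes of a gene were kept apart, and no probe's level was set against another's.

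The genes were named by the rule that every probe of the 10 genes is reported, with up to 4 genes that passed of each pathway list per organ and mutant and the 5 genes most like H2-Aa and H2-K1 probe 2. Members, lists and tests were chosen with earlier results of these data known. Same-numbered mice did not pair: correlations of their deviations ran between -0.603 and 0.615, and in none of the 8 comparisons did all exceed 0.1. Alternatives were median scaling, no background correction, the deposited normalized table, no filter, array weights, 1 probe per gene, fits of 8 or 64 arrays, the replicate block, and each mouse left out. Leaving out thymus arrays with raised liver genes and spleen arrays that stand apart in markers was chosen after seeing the data.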

Additional observations from a re-analysis of the deposited data

Results flagged for a closer look

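In groups of 4 arrays, a value was singled out when its gap to the nearest of the others, divided by the range of the group, exceeded Dixon's critical value at 95%. Of 232 groups tested, 22 had such an array, and chance flags about 1 in 20 groups. All values are log2 intensities, and none was weighed for a cause.

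Hmgn2-/- spleen replicate 3, the array with the highest pancreas level and the lowest B cell level of its group, was low on 5 probes: H2-Ab1 probe 1 at 13.12 (the next array at 13.95), H2-Ab1 probe 3 at 12.36 (next 13.48), H2-Eb1 at 12.46 (next 13.35), B2m probe 1 at 13.37 (next 13.88) and H2-K1 probe 2 at 7.78 (next 8.16). Hmgn1-/-n2-/- liver replicate 4 was high on H2-Ab1 probe 1 at 8.83 (next 8.06), probe 2 at 8.46 (next 7.63) and probe 3 at 8.12 (next 6.84). The same array had the highest macrophage mean of its group.

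Among the C57BL/6J wild-type spleens, replicate 3 was low for H2-Aa at 12.32 (next 12.97) and for H2-D1 at 8.97 (next 9.30) but high for H2-K1 probe 2 at 9.04 (next 8.65). The library labelled replicate 4, which goes against its label, was low for Cd74 probe 1 at 13.94 (next 14.17). Tap1 was low in C57BL/6 wild-type spleen replicate 2 at 8.16 (next 8.61). H2-Ab1 probe 3 was low in Hmgn1-/-n2-/- spleen replicate 3 at 13.21 (next 13.44).

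In thymus, H2-Ab1 probe 4 was low in C57BL/6 wild-type replicate 1 at 11.24 (next 11.55) and Ciita was low in C57BL/6J wild-type replicate 2 at 7.78 (next 8.06). Tap1 was high in C57BL/6J wild-type replicate 3 at 8.05 (next 7.89). B2m probe 1 was high in C57BL/6J wild-type replicate 1 at 13.43, where quantile scaling placed the other 3 at one value, 13.41. In liver, Cd74 probe 2 was high in C57BL/6 wild-type replicate 2 at 8.09 (next 7.65) and H2-K1 probe 2 was high in Hmgn1-/-n2-/- replicate 1 at 6.99 (next 6.66). In brain, Cd74 probe 2 was low in Hmgn2-/- replicate 1 at 4.65 (next 5.39), and Cd74 probe 1 was high in C57BL/6J wild-type replicate 4 at 6.03 (next 5.88).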

How the results depend on the processing

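Of 3937 values of member probes in the mutant comparisons under the alternatives, 3916 stayed uncalled, as they were with the settings reported, and 215 of those changed sign. Under an alternative 20 passed in the same direction and 1 in the opposite one. With array weights 4 members were called in Hmgn1-/-n2-/- brain, 1 in Hmgn1-/-n2-/- thymus and 2 in Hmgn2-/- thymus, and a fit of 8 arrays alone called 1 in Hmgn1-/-n2-/- thymus. The calls over all probes in these fits are not given here, so the member counts cannot be set against them. Under median scaling 10 members were called in Hmgn2-/- thymus, and B2m probe 3 turned there to -0.54. Between the wild types, the 4 brain calls became 1 with 1 probe per gene (of 6 tested) and 2 with only 8 arrays, 3 with the deposited normalized table, no filter or no background correction, and 6 under median scaling, which added H2-Ab1 probe 2 (-0.51, limma, adjusted p = 0.0256) and H2-Eb1 (-0.52, adjusted p = 0.0419). The 1 liver call became 0 with 1 probe per gene, all 64 arrays together, the deposited normalized table, no background correction or no filter, and 4 (1 higher and 3 lower) with array weights. For these wild-type fits too the calls over all probes are not given here, so a rise or fall in member counts cannot be read as particular to the members. Under median scaling B2m probe 1 turned to -0.12 for spleen minus liver and -0.53 for thymus minus liver, B2m probe 3 to -0.0822 and -0.61, and H2-D1 to 0.30 for thymus minus liver. The cause of these moves was not tested.

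With 1 mouse or array left out, the member counts ran from 2 to 4 between wild-type brains, 0 to 0 between wild-type livers, 0 to 1 in Hmgn1-/-n2-/- thymus and 0 to 2 in Hmgn2-/- thymus. They ran from 13 to 15 for spleen against thymus, 15 to 16 for spleen against liver and for liver against brain, 12 to 14 for thymus against liver, 16 to 16 for spleen and for thymus against brain, and 0 to 0 in all other comparisons. In Hmgn2-/- thymus the calls over all probes ran from 872 to 2828, against 1720 with all arrays. Between the wild types they ran from 79 to 237 in brain, against 208, and from 13 to 185 in liver, against 122. With the replicate block all member counts of the mutants stayed 0, and the calls over all probes for the mean change in Hmgn2-/- mice were 32, against 7 without it. No replicate block could be fitted between the wild types, since numbers lie within a cohort, and the slide block was not run because the files name no slides.

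Median scaling moved the median of all probes to -0.19 between the wild-type brains, -0.17 in Hmgn1-/-n2-/- liver, -0.16 in Hmgn2-/- thymus and -0.11 between the wild-type thymuses. The share of lower calls was 92.9% against 47.1%, 78.6% against 50%, 95.8% against 54.7% and 77.4% against 58.1% with quantiles. It was 76.2% against 60% in Hmgn1-/-n2-/- thymus and 0% against 25% between the wild-type spleens. With 4 mice per group, the printed intervals give the sizes left under quantile scaling only. In Hmgn2-/- thymus B2m probe 3 changed by -0.54 under median scaling, outside its quantile interval of -0.26 to 0.27. Probes near background in brain understate changes.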
